A study of Saccharomyces cerevisiae with 4 samples.

Results

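The lysine biosynthesis genes described here are LYS20, LYS21, LYS4, LYS12, LYS2, LYS5, LYS9, LYS1 and LYS14, which are 9 of the 5493 yeast genes with at least 1 array probe inside them. Their probes were those annotated as lying inside a gene whose symbol or systematic reading frame name is that of a member, 54 of 30279 such probes. The genes were picked with their occupancy on these arrays known, so their levels and their difference between the groups are given as a description with no test.

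Budding yeast makes lysine from 2-oxoglutarate and acetyl-CoA through the alpha-aminoadipate pathway of fungi, a route distinct from the diaminopimelate route of plants and most bacteria. Its early steps lead through homocitrate to 2-oxoadipate, and its later steps through aminoadipate semialdehyde and saccharopine to lysine. Lysine inhibits homocitrate synthase, the first enzyme, and the semialdehyde intermediate lets the activator Lys14 switch on the genes, while Gcn4 adds a general response to amino acid shortage.

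The arrays held chromatin immunoprecipitation DNA (ChIP-chip) of RNA polymerase II from Saccharomyces cerevisiae grown in rich medium (YPD) at 25 °C to log phase. Of the 4 arrays, 2 came from a strain with TAP-tagged Rpb3, a subunit of the polymerase core, and 2 from a strain with TAP-tagged Rpb4, a subunit that pairs with Rpb7 on the outside of the core. The labels give S288c as the background of both strains and record 1% formaldehyde for 20 min as the fixation. On each array the immunoprecipitated DNA (IP, Cy5) was set against DNA of the whole-cell extract (WCE, Cy3), the input. Occupancy is log2(IP/WCE), centred on the array's median probe and averaged over the probes inside a gene, so a value of 0 stands for a typical probe and does not mean that polymerase was absent. It compares each probe with its own input, and it averages over cells, so fewer occupied cells and less polymerase per cell cannot be told apart.

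Across the 5490 genes with a value on all arrays, the Rpb3 arrays correlated at Pearson r = 0.930, the Rpb4 arrays at 0.954, and pairs of unlike arrays at 0.828 to 0.887. Genes are not independent, and these correlations describe the arrays. Rpb3 array 2 had the widest spread over genes (SD 0.72). Whether like arrays stem from separate cultures is not given in the labels, so standard errors and p-values cover the spread between the 4 hybridised samples and no more, and that spread may be technical. The strains also differed in more than the tag, because the extract of the Rpb4 strain lacked HIS3 and TRP1 (log2 WCE differences of -7.46 and -5.77), so tag and strain cannot be told apart in any comparison of the groups. LYS2, a common marker deletion in laboratory strains, was present in both extracts, with WCE signals of -0.42 in the Rpb3 arrays and 0.17 in the Rpb4 arrays relative to the median probe. At the 54 member probes the foreground exceeded the background at least 53.0 times in the IP and 46.5 times in the WCE.

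The pathway separated into 7 genes at which Rpb4 stood more than 1 log2 unit below Rpb3 and 2 genes, LYS5 and LYS14, at which the subunits stood close to each other. The median over the 9 genes was 2.31 with Rpb3 and 0.20 with Rpb4, a difference of -1.98, against 0.03, 0.05 and 0.01 over all genes. In the limma fit 7 of the 9 genes were lower in the Rpb4 arrays at an adjusted p under 0.05, against 2.51% of all genes, and 0 were higher, against 0.929%. The Rpb4 median was 0.06 without Rpb4 array 1 and 0.34 without Rpb4 array 2. Both Rpb4 arrays lay below both Rpb3 arrays for 8 of the 9 genes, against 28.7% of all genes, and above them for 0, against 31.8%. Since this contrast chose the members, nothing is read from these counts. Without Rpb4 array 2 the number of members past the threshold was 0, as it was for all genes in both directions, while 307 genes were lower and 97 higher at an unadjusted p under 0.05.

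**Figure D1:**
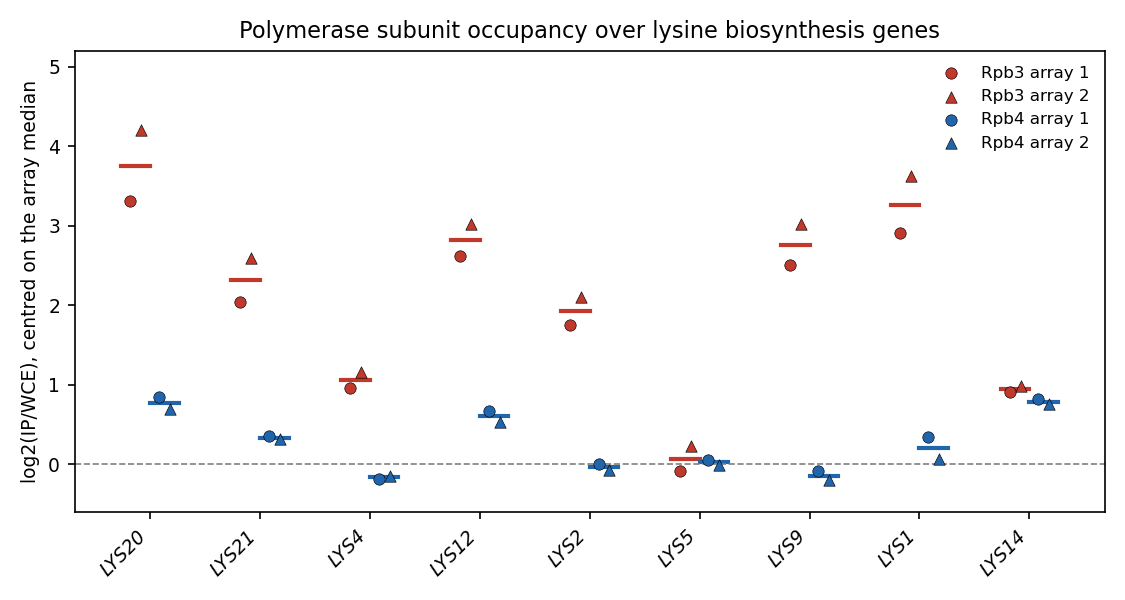
Occupancy of the 9 lysine biosynthesis genes in each array, as log2(IP/WCE) centred on the array median (vertical axis), with the genes in pathway order on the horizontal axis. Circles and triangles are arrays 1 and 2, and lines are the means of 2 arrays. All Rpb4 points lie below 1, while the Rpb3 points of LYS20, LYS21, LYS12, LYS9 and LYS1 lie above 2.

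Homocitrate synthase, the enzyme of the first committed step, is encoded by LYS20 and its close paralog LYS21. LYS20 (YDL182W, chromosome 4, probes from 133412 to 134674) read 3.31 and 4.20 in the Rpb3 arrays and 0.84 and 0.70 in the Rpb4 arrays. It was the highest of the 9 genes with Rpb3, the 6th highest of 5490 genes, and stood 604th with Rpb4. The difference was -2.98 ± 0.31 (SE, 2 against 2 arrays), or 7.90-fold lower with Rpb4, and the arrays of the groups lay far apart.

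LYS21 (YDL131W, chromosome 4, probes from 227505 to 228690) read 2.03 and 2.60 in the Rpb3 arrays and 0.35 and 0.32 in the Rpb4 arrays. The difference of -1.98 ± 0.20 was smaller than at LYS20, and both Rpb3 arrays placed LYS21 below both values of LYS20. Probes of such similar genes may bind each other's DNA, and whether they share signal was not tested.

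Homoaconitase and homoisocitrate dehydrogenase carry the product on to 2-oxoadipate. The homoaconitase gene LYS4 (YDR234W, chromosome 4, probes from 931101 to 933042) read 0.96 and 1.15 in the Rpb3 arrays and -0.18 and -0.14 in the Rpb4 arrays. It had the lowest Rpb3 level of the 7 genes, with a difference of -1.22 ± 0.09. Its mean Rpb4 level was the lowest of all 9, but its Rpb4 arrays overlapped those of LYS9, at -0.09 and -0.20. The homoisocitrate dehydrogenase gene LYS12 (YIL094C, chromosome 9, probes from 186551 to 187650) read 2.61 and 3.02 with Rpb3 and 0.67 and 0.53 with Rpb4. Its Rpb4 level stayed above the median probe in both arrays, and the difference was -2.22 ± 0.16.

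The reduction of aminoadipate to its semialdehyde needs a pair of genes, of which one followed the pathway and the other did not. LYS2 (YBR115C, chromosome 2, probes from 469818 to 473907) encodes the aminoadipate reductase, a large enzyme covered here by 16 probes. It read 1.75 and 2.10 in the Rpb3 arrays and 0.01 and -0.08 in the Rpb4 arrays, a difference of -1.96 ± 0.13. With Rpb4 it was therefore at the level of the median probe. LYS5 (YGL154C, chromosome 7, probes from 215498 to 215946) encodes the phosphopantetheinyl transferase that activates the Lys2 protein. Its 2 probes gave -0.08 and 0.22 with Rpb3 and 0.06 and -0.01 with Rpb4, and the arrays of the groups overlapped. The difference of -0.05 ± 0.12 was smaller than its SE.

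The last steps are run by the saccharopine dehydrogenases encoded by LYS9, which forms saccharopine, and LYS1, which splits it to lysine. LYS9 (YNR050C, chromosome 14, probes from 714071 to 715079) read 2.50 and 3.02 in the Rpb3 arrays and -0.09 and -0.20 in the Rpb4 arrays, a difference of -2.91 ± 0.19. Rpb4 lay below the median probe in both arrays, although the gene was the 44th highest of all with Rpb3. LYS1 (YIR034C, chromosome 9, probes from 419609 to 420666) read 2.91 and 3.62 with Rpb3 and 0.34 and 0.06 with Rpb4. The difference was -3.06 ± 0.27, or 8.36-fold lower with Rpb4, and its distance from LYS20 and LYS9 was within the SE.

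LYS14 (YDR034C, chromosome 4, probes from 509742 to 511867) encodes the activator of the pathway genes and is the one regulator among the members. It read 0.91 and 0.99 in the Rpb3 arrays and 0.81 and 0.75 in the Rpb4 arrays. The arrays did not overlap, but the difference was only -0.16 ± 0.06, and it was -0.01 when arrays were centred on probes outside genes, a step that moved the median difference of all genes from 0.01 to 0.17. Its mean Rpb4 level of 0.78 was close to that of LYS20 at 0.77, and their arrays overlapped. The last 3 probes of LYS14, on the side of MRH1, read 0.96, 1.76 and 2.81 with Rpb4, and with the median over probes its Rpb4 level was 0.38, below LYS20 at 0.67 and LYS12 at 0.60.

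The order of levels differed between the subunits. With Rpb3 it ran LYS20, LYS1, LYS12, LYS9, LYS21, LYS2, LYS4, LYS14, LYS5, and the arrays overlapped for 6 of the 8 pairs of neighbours, all except LYS2 with LYS4 and LYS14 with LYS5. With Rpb4 it ran, by the mean over probes, LYS14, LYS20, LYS12, LYS21, LYS1, LYS5, LYS2, LYS9, LYS4, and 4 of the 8 pairs overlapped. Rpb3 array 2 read above array 1 for all 9 genes, and also for 136 of 145 other genes as highly occupied by Rpb3 as LYS2 or more. In the Rpb4 group array 1 read above array 2 for 8 of the 9 lysine genes, LYS4 being the exception, whereas array 2 was the higher one for 123 of those 145 genes. Against the median probe, 8 of the 9 lysine genes were higher with Rpb3 (limma adjusted p under 0.05), against 38.4% of all genes, and 3 were higher with Rpb4 (LYS20, LYS12 and LYS14), against 37.9%. None was lower in either group, by limma or at an unadjusted p under 0.05, against 29.2% and 25.8% of all genes. The levels were known when the genes were picked, and nothing is read from these counts.

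An Rpb4 level under 1 was not the usual state of a gene highly occupied by Rpb3. The 145 other genes with an Rpb3 level at or above that of LYS2 (1.92) had medians of 2.33 with Rpb3 and 1.95 with Rpb4, and 14 of them stood under 1 with Rpb4. All 6 lysine genes at or above that level stood under 1 with Rpb4. Their levels were known when they were picked, so nothing is read from this count. The median difference was -0.39 over those 145 genes, and it was -1.98 over the 9 lysine genes, a comparison of medians to which the choice of members gives its direction. The sets are also unlike, because the 9 include LYS4, LYS14 and LYS5, which stood below 1.92 with Rpb3.

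**Figure D2:**
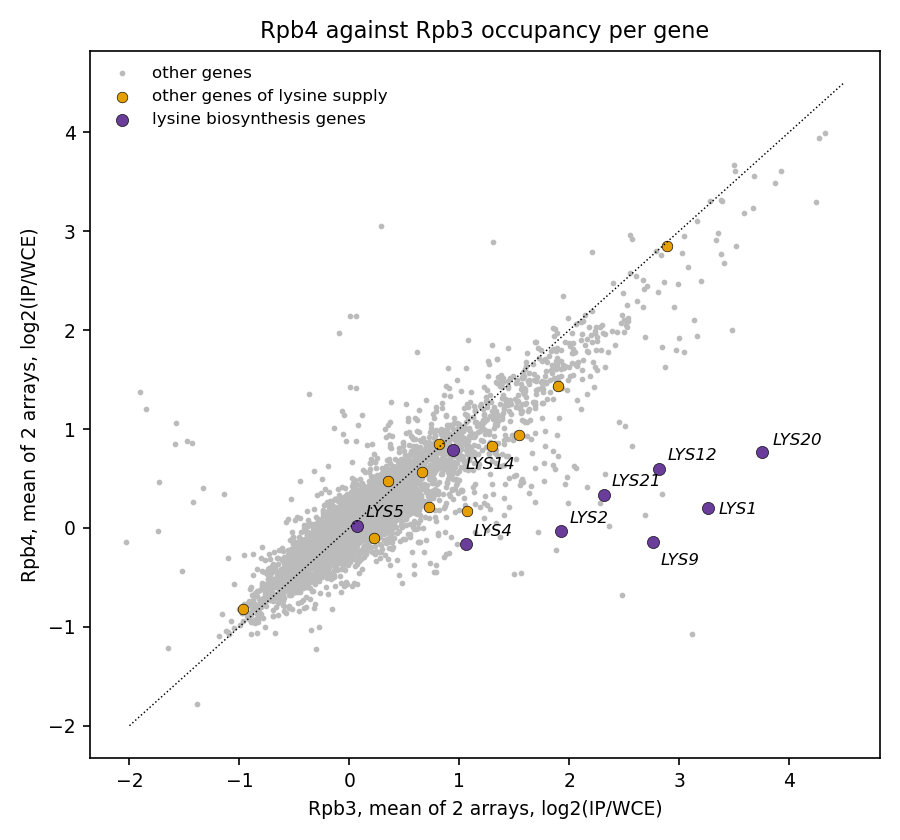
Rpb4 level (vertical axis) against Rpb3 level (horizontal axis) of 5490 genes, each the mean of 2 arrays in log2(IP/WCE) centred on the array median. Purple points are the 9 lysine biosynthesis genes, orange points are 11 other genes of lysine supply, grey points are the other genes, and the dotted line marks equal levels. LYS20, LYS1, LYS12, LYS9, LYS21, LYS2 and LYS4 lie below the line and LYS5 and LYS14 lie next to it.

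The ratio joins 2 channels, and both differed at the 7 genes. By group means all 9 lysine genes had a lower IP signal and a higher WCE signal in the Rpb4 arrays, against 28.9% of all genes. The WCE differences of LYS5 (0.007 ± 0.041) and LYS14 (0.016 ± 0.024) were smaller than their SE. Both channels enter the contrast that chose the members, so nothing is read from this count. The median IP difference was -1.39 and the median WCE difference 0.59, against -0.005 and 0.004 over all genes. At LYS20 the input held about as much of the difference as the precipitate, with -1.49 ± 0.25 in the IP and 1.50 ± 0.08 in the WCE. The WCE signal of LYS20 was -1.09 and -1.34 in the Rpb3 arrays and 0.28 and 0.30 in the Rpb4 arrays. LYS9 had a WCE difference of 1.11 ± 0.02 beside an IP difference of -1.82 ± 0.20.

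At the other genes the IP carried more of the difference than the WCE did. The IP and WCE differences were -2.21 and 0.87 at LYS1, -1.69 and 0.54 at LYS12, -1.39 and 0.59 at LYS2, -1.20 and 0.79 at LYS21, and -0.91 and 0.32 at LYS4. LYS5 and LYS14 differed by 0.01 and 0.02 in the WCE and by -0.05 and -0.16 in the IP. In the Rpb3 extract the median WCE signal was -0.48 over the 9 genes and -0.68 over the 145 other highly occupied genes. In the Rpb4 extract it was 0.17 over the 9 genes and -0.68 over those 145. The 9 include LYS4, LYS14 and LYS5, which stood below the Rpb3 level of those 145. When the IP was divided by the mean WCE of all 4 arrays, so that the input could not differ between groups, the median difference was -1.37. In that setting 5 of the 9 genes passed the threshold in place of 7, LYS20 and LYS21 being lost, against 213 of all 5490 genes. The difference was then -1.48 at LYS20, -1.80 at LYS9, -1.19 at LYS21 and -2.19 at LYS1. Without the probes whose WCE differed by more than 1 between the groups 6 passed, against 162 of 5464 genes, and LYS20 had no probe left. Since this contrast chose the members, nothing is read from the numbers that passed.

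Single probes also differed in the input. Of the 54 lysine probes 8 had a WCE signal over 1 log2 unit higher in the Rpb4 arrays (all 3 of LYS20, 3 of 4 of LYS9 and 2 of 4 of LYS1), and 27 of the 30202 other inside probes did. It was over 1 log2 unit lower at 0 of the 54 and at 77 of the 30202. The WCE enters the ratio that chose the members, so nothing is read from these counts. Chromosome 9, which holds LYS12 and LYS1, had a median WCE difference of -0.42 over its 197 genes, where the 15 other nuclear chromosomes lay between -0.01 and 0.01, and its median IP difference was -0.54. Relative to the median of their chromosome, the IP and WCE differences were -1.15 and 0.96 at LYS12 and -1.66 and 1.29 at LYS1, closer to each other in size than the uncorrected values, and the ratio differed by -2.11 and -2.95. What part the extracts had in the ratios beyond these values was not tested.

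**Figure D3:**
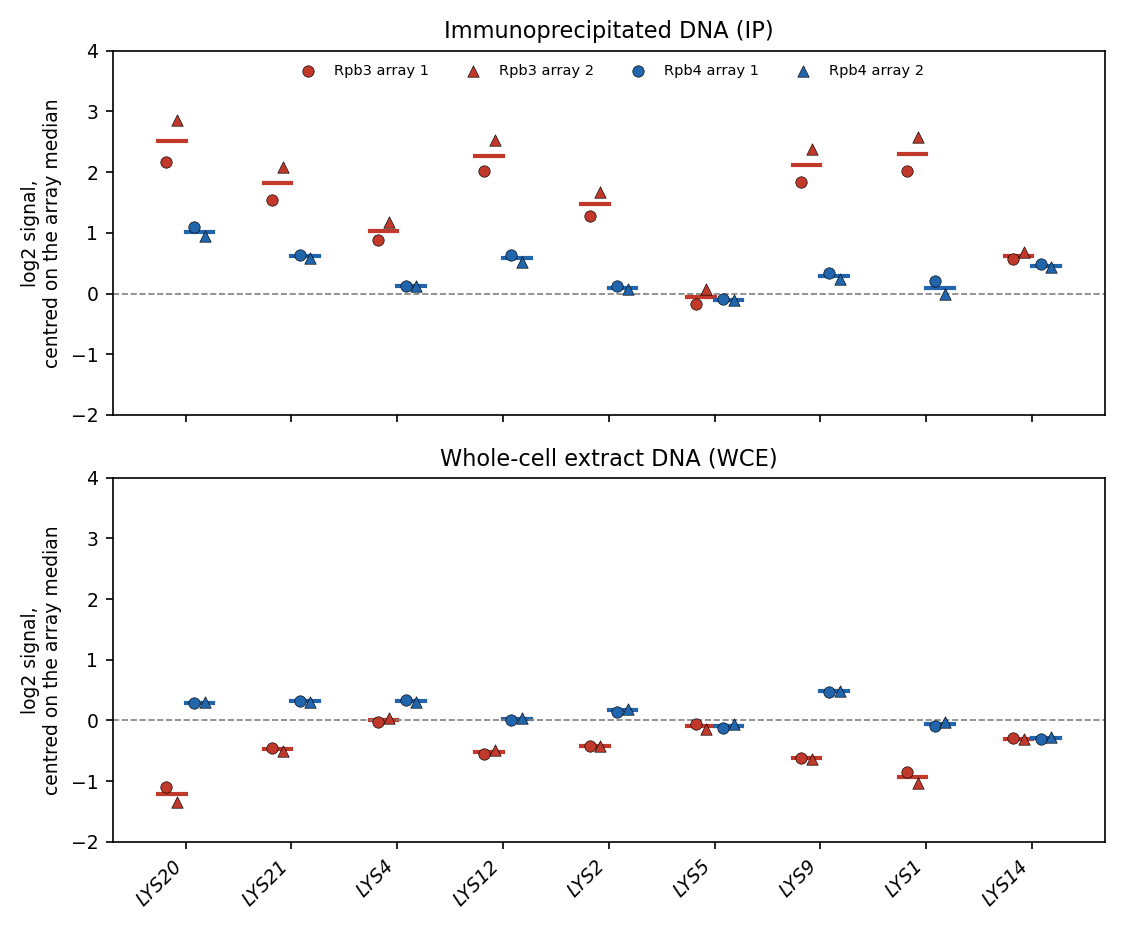
Signal of the IP (upper panel) and WCE (lower panel) channels over the 9 lysine biosynthesis genes, as log2 signal centred on the array median of that channel, with circles and triangles for arrays 1 and 2 and lines for the means of 2 arrays. The WCE points of LYS20 lie at -1.09 and -1.34 in the Rpb3 arrays and at 0.28 and 0.30 in the Rpb4 arrays, while those of LYS5 and LYS14 lie close together.

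Both Rpb4 arrays lay below both Rpb3 arrays at all 42 inside probes of the 7 genes, at 5 of 10 probes of LYS14 and at 0 of 2 of LYS5, against 21.7% of 30231 inside probes. The 7 genes are those with the large difference, so nothing is read from this count. Their probes had differences from -3.69 at the first probe of LYS20 to -0.72 at the first probe of LYS4. Over the 16 probes of LYS2, Rpb3 ranged from 1.35 to 2.43 and Rpb4 from -0.42 to 0.26, so the ranges stayed apart over the whole length of the gene. LYS12 was the most even, with 4 differences between -2.27 and -2.15. In LYS14 the 10 probes spanned 0.21 to 3.10 with Rpb3 and 0.17 to 2.81 with Rpb4, a wider range along one gene than between the subunits anywhere in it. The 2 probes of LYS5 stood at -0.33 and 0.47 with Rpb3 and at -0.31 and 0.35 with Rpb4.

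Upstream of the genes the profiles had different edges. At LYS9 the probes 1194, 758 and 572 bp before the gene start read 2.47, 3.28 and 2.22 with Rpb3 and 1.81, 2.75 and 1.86 with Rpb4, so both subunits were high there. The probe 346 bp before the start was at 0.54 and 0.13, and from the probe 43 bp before the start (2.40 and 0.01) through the gene Rpb4 stayed near the median probe. The files assign all of these upstream probes to the LYS9 promoter.

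At LYS20 the difference reached into the divergent promoter it shares with MRX19 in the files' annotation. The 5 probes from 1500 to 666 bp before the LYS20 start lay between 1.60 and 2.75 with Rpb3 and between -0.57 and -0.21 with Rpb4. The probe 446 bp before the start was lower than these in both groups, at 0.40 and -0.79. Past the last inside probe of LYS20, 1516 bp from its start, Rpb3 still read 4.18 and Rpb4 0.87.

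At LYS21 the upstream probes showed no such stretch, with 0.16 and -0.10 at 212 bp before the start, and the values 1637 bp past the start were 2.57 and 0.56. LYS1 was flanked by differing probes on both sides, with 2.61 and 0.45 at 276 bp before the start and 3.03 and 0.20 at 1287 bp past it. The values met at 0.59 and 0.38 by 1754 bp past the LYS1 start.

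**Figure D4:**
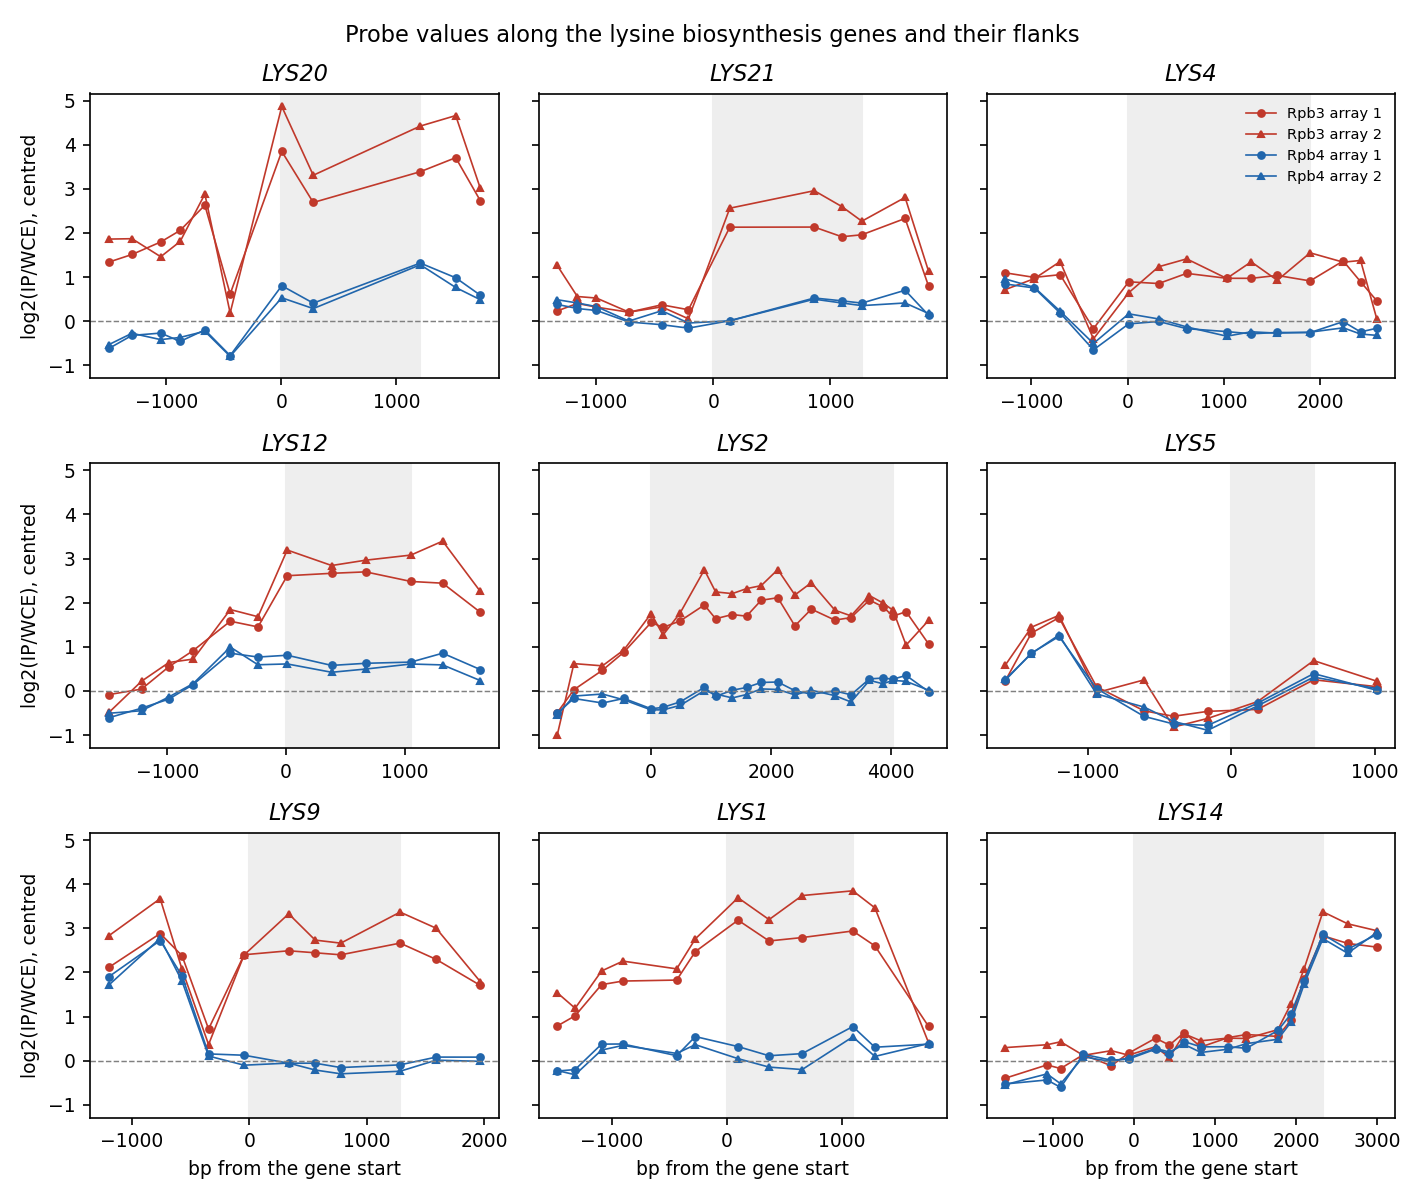
Probe values along the 9 lysine biosynthesis genes and their flanks, as log2(IP/WCE) centred on the array median (vertical axis) against the distance in bp from the gene start in the direction of transcription (horizontal axis, with its own range in each panel). Grey shading spans the gene from its start to its last inside probe. The Rpb3 and Rpb4 lines stay apart through LYS2 and run together through LYS5 and LYS14, where both are highest at the 3′ end of LYS14 (3.10 and 2.81).

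The shape along a gene was not used to choose the members and could be tested, as the mean of the probes in the 3′ part minus that in the 5′ part. Of the 7 lysine genes with at least 4 probes, LYS14 was higher at its 3′ end in both groups. The value was 0.88 and 1.20 in the Rpb3 arrays (mean 1.04 ± 0.10, limma adjusted p = 0.0061) and 1.04 and 0.99 in the Rpb4 arrays (mean 1.01 ± 0.10, limma adjusted p = 0.0062). The neighbour at that end is MRH1, with 2.79 and 2.80, whose reading frame meets that of LYS14 tail to tail, and its part in the slope was not tested. Without probes of dim input the slopes of LYS14 were 0.29 (limma adjusted p = 0.0463) and 0.27 (limma adjusted p = 0.0465).

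LYS21 was lower at its 3′ end with Rpb3, at -0.20 and -0.33 (mean -0.26 ± 0.07, limma adjusted p = 0.0434), and not past the threshold with Rpb4 (0.15 ± 0.07, limma adjusted p = 0.134). The call was lost over the mean WCE of 4 arrays (-0.11, limma adjusted p = 0.138), with genes of at least 3 probes included (limma adjusted p = 0.0530), and without Rpb4 array 1 or array 2 (limma adjusted p = 0.232 for each). LYS2 was higher at its 3′ end with Rpb4, at 0.21 in each array (limma adjusted p = 0.0496), and with Rpb3 its slope was 0.06 ± 0.06 (limma adjusted p = 0.484). The LYS2 call was lost with genes of at least 3 probes included (limma adjusted p = 0.0632), without Rpb4 array 1 (limma adjusted p = 0.578) and without Rpb4 array 2 (limma adjusted p = 0.548). Whether the slopes differed between the subunits was not tested.

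In all, 1 of 7 genes was higher and 1 lower at the 3′ end with Rpb3, against 30.4% and 4.16% of 3530 genes. With Rpb4 2 of 7 were higher and 0 lower (1 lower at an unadjusted p under 0.05, LYS4 at -0.24), against 41.4% and 2.66%. The number higher with Rpb3 was 3 without Rpb3 array 1. The number higher with Rpb4 was 4 without Rpb3 array 1 or 2 and 1 without Rpb4 array 1 or 2, and the number lower with Rpb4 was 2 without Rpb3 array 1 or 2. The median slope of the 7 genes was 0.06 with Rpb3 and 0.15 with Rpb4, against 0.18 and 0.25 over all genes with a slope. LYS20 has 3 probes and LYS5 has 2, too few for this measure.

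The nearest gene with an inside probe on each side of a member was examined too. The chromatin fragments were about 400 to 500 bp long, and the gap between the probes of the neighbours, from 133 to 9414 bp, was over 500 bp for 12 of 18. Whether shared fragments had a part in the values of the neighbours was not tested. Of the 18 flanking genes 7 were lower in the Rpb4 arrays (limma adjusted p under 0.05), against 2.51% of all genes, and 0 were higher, against 0.929% (11 lower and 0 higher at an unadjusted p under 0.05). They adjoin genes that this contrast chose, so nothing is read from these counts. The number lower was 5 with the median over probes and 8 with normexp background correction, against 106 and 273 of all genes. Fits without 1 array take the spread from the other group alone, and their counts are not read for these genes. NRE1, next to LYS1, had the largest difference at -1.74 ± 0.13 (limma adjusted p = 0.0157), with 1.81 and 2.17 in the Rpb3 arrays and 0.24 and 0.25 in the Rpb4 arrays. INH1, which encodes an inhibitor of the mitochondrial ATPase, was lower by -1.14 at its 1 probe and MRX19 by -1.06, on the 2 sides of LYS20.

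MSO1, a gene of secretory vesicle fusion past the 3′ end of LYS9, was lower by -1.08 ± 0.07 (limma adjusted p = 0.0115). RSM25, a mitochondrial ribosomal protein gene, and the kinase gene PRK1, on the 2 sides of LYS12, were lower by -0.74 and -0.61, and the splicing factor gene PRP42 next to LYS4 by -0.45. The PRK1 probes nearest LYS12 differed by -2.20 and -1.66, and the PRP42 probes nearest LYS4 by -1.40 and -0.50. STF1, next to LYS21 and with 1 probe, stood at -0.81 ± 0.13 and did not pass (limma adjusted p = 0.0603). RAD16, next to LYS2, stood at -0.31 and did not pass either. Some other neighbours stood close to 0. CDC53, a ubiquitin ligase scaffold gene upstream of LYS21, differed by -0.001 ± 0.07 and BRE5, 1888 bp from the nearest LYS9 probe, by 0.01 ± 0.06. MRH1, beside LYS14 with its own small difference, was high in both groups and differed by 0.01 ± 0.12. Of the neighbours that passed, PRK1, RSM25, PRP42 and NRE1 had gaps of 209, 423, 465 and 477 bp. The gaps of MSO1, INH1 and MRX19, which also passed, were 625, 720 and 1646 bp. MGA2 next to LYS1 and CDC43 next to LYS5, with gaps of 133 and 380 bp, did not pass.

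Other genes that serve the supply and use of lysine were examined in the same fit over all genes. Of these 11 genes 2, ARO8 and KRS1, were lower in the Rpb4 arrays (limma adjusted p under 0.05), against 2.51% of all genes, and 0 were higher, against 0.929% (6 lower and 0 higher at an unadjusted p under 0.05). The number lower was 1 to 5 in 11 alternatives that kept all 4 arrays, against 101 to 273 over all genes. The median difference of the 11 genes was -0.33.

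ARO8 (YGL202W, chromosome 7, probes from 116186 to 117496) encodes an aminotransferase that can form aminoadipate. It read 1.07 and 1.06 with Rpb3 and 0.16 and 0.18 with Rpb4, a difference of -0.90 ± 0.05 (limma adjusted p = 0.0115). That call was lost when arrays were brought to one scale (limma adjusted p = 0.0669), without Rpb4 array 1 (limma adjusted p = 0.0882) and without Rpb4 array 2 (limma adjusted p = 0.109).

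KRS1 (YDR037W, chromosome 4, probes from 525698 to 527182), the gene of the cytosolic lysyl-tRNA synthetase, read 1.49 and 1.61 with Rpb3 and 0.94 and 0.95 with Rpb4. The difference of -0.60 ± 0.07 (limma adjusted p = 0.0309) was lost on one scale (-0.42, limma adjusted p = 0.211), with the median over probes (limma adjusted p = 0.0502), over the mean WCE of 4 arrays (limma adjusted p = 0.0863), and without Rpb4 array 1 (limma adjusted p = 0.337) or array 2 (limma adjusted p = 0.327).

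The mitochondrial oxodicarboxylate carriers, which carry 2-oxoadipate across the membrane, gave values of opposite sign. ODC2 stood at -0.46 ± 0.07 (limma adjusted p = 0.0504) and ODC1 at 0.12 ± 0.05 (limma adjusted p = 0.292), and neither passed. ODC1 stood between 0.116 and 0.122 when each array was left out. ODC2 did not pass in 5 of 11 alternatives that kept all 4 arrays and passed in the others (limma adjusted p from 0.0368 to 0.0481). Its difference was only -0.22 on one scale (limma adjusted p = 0.524) and -0.12 after quantile normalization (limma adjusted p = 0.343). MKS1, a regulator whose loss is known to raise lysine synthesis, stood at -0.51 and CCS1, the copper chaperone gene also known as LYS7, at -0.48, and they did not pass either (limma adjusted p = 0.0928 and 0.0589). MKS1 did not pass in 8 of 11 alternatives that kept all 4 arrays. It passed on one scale, after quantile normalization and with normexp background correction (limma adjusted p from 0.0321 to 0.0412). CCS1 did not pass in 9 of these 11. It passed with normexp (limma adjusted p = 0.0197) and when centred on probes inside genes (limma adjusted p = 0.0481). CCS1 stood at -0.25 after quantile normalization (limma adjusted p = 0.0792).

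Among 4 genes of basic amino acid transport none passed. The lysine permease gene LYP1 differed by 0.03 ± 0.06 (limma adjusted p = 0.785), and its relatives ALP1 and CAN1 by 0.15 ± 0.11 and -0.09 ± 0.06. YPQ1, a vacuolar transporter of basic amino acids, stood at -0.33 ± 0.07 (limma adjusted p = 0.0871). YPQ1 did not pass in 10 of 11 alternatives that kept all 4 arrays, and passed after quantile normalization (limma adjusted p = 0.0464). The difference of ALP1 was 0.02 to 0.28 when each array was left out. GCN4, the activator of amino acid synthesis genes, was highly occupied by both subunits, with 2.74 and 3.03 in the Rpb3 arrays and 2.80 and 2.89 in the Rpb4 arrays. The arrays of GCN4 overlapped, and its difference was -0.04 ± 0.12 (limma adjusted p = 0.860). It was 0.43 after quantile normalization (limma adjusted p = 0.0466) and -0.18 without Rpb3 array 1.

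**Figure D5:**
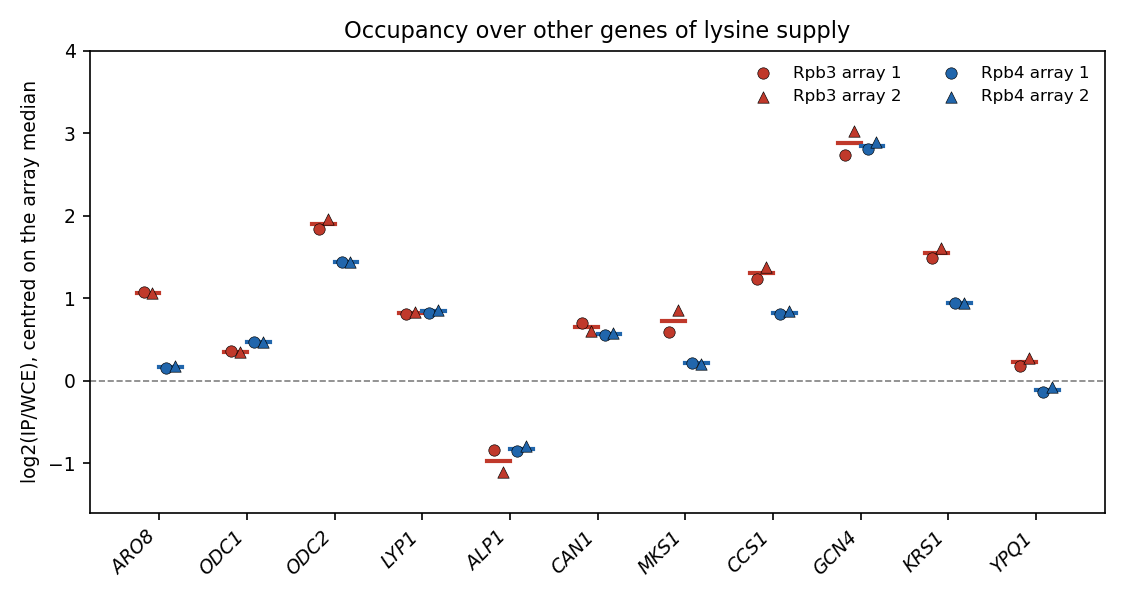
Occupancy of 11 other genes of lysine supply in each array, as log2(IP/WCE) centred on the array median (vertical axis), with circles and triangles for arrays 1 and 2 and lines for the means of 2 arrays. ARO8 has the widest gap, from 1.07 with Rpb3 to 0.17 with Rpb4, while GCN4 stands at 2.89 and 2.85.

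The 5 genes outside the pathway whose 4 array values lay nearest to the median pattern of the 9 lysine genes, by Euclidean distance among 5024 genes with at least 2 probes, were GRE2, ARG4, ATR1, NRE1 and CPA1. The median pattern was 2.03 and 2.60 with Rpb3 and 0.34 and 0.06 with Rpb4. GRE2, a stress-inducible reductase gene, read 2.09 and 2.64 with Rpb3 and 0.05 and -0.01 with Rpb4. ARG4 and CPA1 belong to arginine synthesis, and ATR1 encodes a drug exporter of the plasma membrane. Their means with Rpb3 were 2.28, 2.33 and 2.16, and those with Rpb4 were 0.25, 0.55 and 0.41. These genes were chosen by the same arrays, so their likeness is a description.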

How the data were processed

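For 41775 data probes per array the deposited files give raw and background intensities in both channels and the authors' normalized IP and WCE intensities, per the file headers. The submitters' processing notes name Agilent Feature Extraction 9.1. By their values, the normalized intensities that the authors deposited are foreground minus local background minus a constant (10, 6, 7.25 and 5), and WCE was multiplied by 1 factor per array (0.690, 0.446, 0.808 and 0.928). The deposited log2 ratio is that of these signals. The deposited series table holds the same ratios (equal to 5 decimals except 41, 0, 36 and 65 probes listed at 0, with column medians of -0.042, -0.005, -0.035 and -0.040 and direction IP over WCE) and gave no separate alternative. The probe annotation and the exclusion flag in the files are other deposited columns, per the file headers. The genome build of the positions is not given in the sources used here, and no genome or probe sequence was used.

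Probes marked as excluded, and signals at or below 0, were treated as missing. The log2(IP/WCE) values were then centred by the array median, with no loess or quantile step. The IP carried Cy5 throughout, so a dye effect would not cancel. No untagged precipitation was used here as background, and all arrays lay on 1 slide. The annotation in the files assigned probes to genes. For names only, 5478 genes were found in a table of R64 locus tags. Gene means were fitted with limma 3.58.1 (R 4.3.3, lmFit and eBayes) over the 4 arrays, with 1 spread per gene for both groups. Two-sided p-values were adjusted over all genes (Benjamini-Hochberg, threshold 0.05), for 3′ minus 5′ over genes with at least 4 inside probes. The fit was tested on simulated data with 200 changed genes. Python 3.11.15, numpy 2.4.6, pandas 2.3.3 and matplotlib 3.10.9 made the tables and figures.

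The members, the list of other genes of lysine supply, the tests and the alternatives were chosen with earlier results of these data known. The genes named are the 9 members, 11 genes of that list, the nearest gene with an inside probe on each side of a member, and the 5 genes of nearest pattern; HIS3 and TRP1 were named to describe the extracts. The alternatives were other centrings, scales, background corrections, probe summaries, probe filters and inputs, and leaving out each array. A further gene of the list is not reported here and stands in none of its counts.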

Additional observations from a re-analysis of the deposited data

How the results depend on the processing

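With 2 arrays per group on 1 slide, the number of arrays limits the precision, and the spread of a group left with 1 array is assumed to be that of the other. No paired analysis was possible because the replicate numbers follow the order of the samples and pair none of them. The slide could not be fitted as a block, and without probes whose WCE differed by more than 1 between the groups LYS20 had no probe left. Without probes of dim input GCN4 had no value. Across 15 alternatives 132 of 134 values of the 9 lysine genes stayed below 0, and the other 2 were of LYS5. Since this contrast chose the members, nothing is read from these signs or from the numbers of members past the threshold given below.

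The median difference was -2.68 with normexp background correction and -1.37 over the mean WCE of 4 arrays, and -2.26 to -1.79 when each array was left out. The Rpb3 median was 3.17 and 1.91 in these settings (2.03 to 2.60 without single arrays), and the Rpb4 median 0.63 over the mean WCE (0.06 to 0.34). The median IP and WCE differences ranged from -1.58 to -1.15 and from 0.57 to 0.61 without single arrays. Leaving out single arrays gave 0 to 9 members past the threshold, the 0 without Rpb4 array 2. Of the other lysine supply genes 4 were lower when centred on probes inside genes, 4 after quantile normalization, 5 with normexp, 1 on one scale, 1 with the median over probes, 1 over the mean WCE, and 0 to 7 without single arrays, and 1 was higher after quantile normalization (0 to 2 without single arrays). GCN4 turned from -0.04 to 0.43 after quantile normalization.

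For the 3′ minus 5′ slopes, the number lower with Rpb3 was 0 over the mean WCE, and the number lower with Rpb4 was 1 on one scale, 1 after quantile normalization and 1 over the mean WCE. Without single arrays the numbers were 1 to 3 higher and 0 to 1 lower with Rpb3, and 1 to 4 higher and 0 to 2 lower with Rpb4. With genes of 3 probes included, LYS20 was lower at its 3′ end with Rpb3 (-0.45, limma adjusted p = 0.0242) and higher with Rpb4 (0.63, limma adjusted p = 0.0126).

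Over all genes 138 were lower and 51 higher in the Rpb4 arrays. The number lower was 273 with normexp and 213 over the mean WCE, and the number higher 147 when centred on probes outside genes, 189 after quantile normalization and 109 with normexp. Without single arrays, lower and higher counts were 1592 and 1843 (Rpb3 array 1), 864 and 579 (Rpb3 array 2), 29 and 22 (Rpb4 array 1) and 0 and 0 (Rpb4 array 2). Without an Rpb3 array the spread per gene came only from the 2 Rpb4 arrays. Without an Rpb4 array it came only from the 2 Rpb3 arrays. The median absolute difference over genes was 0.03 between the Rpb4 arrays and 0.14 between the Rpb3 arrays. Numbers past the threshold in such fits therefore depend on which pair gave the spread. The causes of the shifts in the other settings were not tested.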
